A study of Caenorhabditis elegans with 3 samples.

Results

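The trehalose genes of Caenorhabditis elegans were examined for binding of MML-1, by chromatin immunoprecipitation and sequencing (ChIP-seq). The members were the 5 trehalase genes tre-1 to tre-5 and the trehalose phosphate synthase genes tps-1 and tps-2, 7 of 19973 protein-coding genes in the annotation. They were chosen by name and role, and a region belonged to a member when its summit lay in the gene body or within 5 kb of it. All samples were whole L3 larvae of mixed sex from strain OP198 (unc-119(ed3) III; wgIs198). This strain carries a stably integrated transgene that encodes MML-1 with a tag, given on the labels as eGFP and, for replicate 3, as a GFP-FLAG fusion at the C-terminus. The labels give 1 condition with 3 biological replicates, so members were compared with one another, between replicates and with all genes, and no treated or mutant group was available. What drives the transgene is not stated on the labels, and in whole larvae the tissue behind a region was not measured.

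Trehalose is a sugar made of joined glucose units. Synthases of the tps type build trehalose phosphate from UDP-glucose and glucose 6-phosphate, a phosphatase removes the phosphate, and trehalases split the finished sugar back into glucose. In C. elegans trehalose serves as a stored sugar and a protectant, known from dauer larvae, desiccation and osmotic stress. MML-1 belongs to the Mondo family of basic helix-loop-helix leucine zipper proteins and acts with the Max-like partner MXL-2. Its mammalian relatives MondoA and ChREBP respond to glucose 6-phosphate and bind E-box sequences, of which CACGTG is the best known.

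The regions came from the authors' lists in the ce11 build, and the depth of the libraries is unknown. The pooled list, called on the 3 replicates together, held 30000 regions and was labelled as peaks and background. The reproducible list held the 195 regions that were kept after thresholding on agreement between replicates, and these are called peaks here. The lists of replicates 1 and 2 held 30000 regions each and that of replicate 3 held 27021. Replicates 1 and 2 carry a fragment size range and a stock centre as source on their labels, and replicate 3 carries sonication and the laboratory as source. The signal of a region is the authors' own value, and it was used to rank regions within a list, with rank 1 the highest. The last peak of the reproducible list had a signal of 26.0 and the next pooled region, at rank 196, had 25.8. The peaks were thus also the 195 pooled regions of highest signal. Of these, 1, 14 and 11 had no region within 200 bp in replicates 1, 2 and 3, so a peak need not stand out in every replicate.

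MML-1 peaks lay at 3 of the 7 trehalose genes, the trehalases tre-1 and tre-2 and the synthase tps-2. Both tre-2 and tps-2 held 2 peaks and tre-1 held 1, which gave 5 peaks in all. The trehalases tre-3, tre-4 and tre-5 and the synthase tps-1 had pooled regions but no peak, so each arm of the pathway held genes with and without one. The members were chosen with earlier results of these data known, so their share is a description and no independent evidence. The 3 genes are 42.9% of the members, while 376 genes, or 1.88% of all protein-coding genes, had a peak in the same kind of window. At least 2 peaks were found at 2 members and at 0.355% of all genes. A pooled region among the first 1000 was found at 3 members and at 10.1% of all genes, and these were the same 3 members. In the narrower window of 1000 bp upstream to 200 bp downstream of a transcript start, 3 members and 0.481% of all genes had a peak.

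These counts rest on few peaks and on the choice of peak set. Among the 98 peaks of highest signal 1 member, tre-2, was left. To leave out replicate 1, the top 1000 regions that replicates 2 and 3 had in common stood in for the peaks, and then 1 region at 1 member was left. With replicate 3 left out 2 regions at 2 members were left, and with replicate 2 left out 4 regions at 3 members. In these counts both the peaks and the replicates differ from those of the reproducible list. The members' windows were 12.3 to 19.7 kb long, where the median over all genes was 12.0 kb, so a member had more room for a region than most genes. Per kb, the members' windows held 0.482 pooled regions and the chromosomes as a whole held 0.299.

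The best pooled rank of each member set the 7 genes in a wide order. It was 3 at tre-2, 142 at tps-2, 189 at tre-1, 2131 at tps-1, 5579 at tre-3, 5600 at tre-4 and 13635 at tre-5. The neighbours tps-2 and tre-1, and likewise tre-3 and tre-4, stood close together. Among the 19973 genes, 0.0300% had a best rank as high as that of tre-2, 1.44% one as high as that of tps-2 and 1.83% one as high as that of tre-1. For the others this share was 21.3% at tps-1, 48.2% at tre-3, 48.3% at tre-4 and 79.8% at tre-5. The order below tre-2 and tps-2 depended on the replicates used. As the mean best rank of 2 replicates, with each left out in turn, tre-1 had 405 to 2221, with 2177 without replicate 1 and 2221 without replicate 3. By the same measure tre-3 had 1445.5 to 2759 and tre-5 had 5415 to 8726.5, and without replicate 3 tre-3, at 1445.5, stood ahead of tre-1, at 2221, and of tps-1, at 3563.5. For tre-2 this mean was 2.5 to 6 and for tps-2 it was 133.5 to 182.5. The tps-2 ranks do not belong to a single region, because replicate 3 had its best region at another place than replicates 1 and 2. The median best pooled rank was 2131 over the members and 5593 over the 19277 genes with any pooled region.

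The best rank within each replicate kept tre-2 first. It was 3, 2 and 9 at tre-2 in replicates 1, 2 and 3, and 98, 196 and 169 at tps-2. The tps-2 values come from different regions, 2323 and 2349 bp upstream of the start in replicates 1 and 2 and 800 bp upstream in replicate 3. At tre-1 it was 449, 3993 and 361. Replicate 2 thus stood apart at tre-1, where its highest region lay beyond the gene, in a coding exon of the neighbour xpg-1 and 7197 bp downstream of the tre-1 start, and not at the peak. At tre-3 the best ranks were 802, 2089 and 3429, and at tps-1 they were 3888, 3239 and 1799. They were 10300, 3641 and 4600 at tre-4 and 9054, 8399 and 2431 at tre-5. In each replicate tre-2 was first and tps-2 second, while the order of the other 5 genes differed between replicates. Each of these 5 had a range of ranks that overlapped that of at least 1 other.

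**Figure D1:**
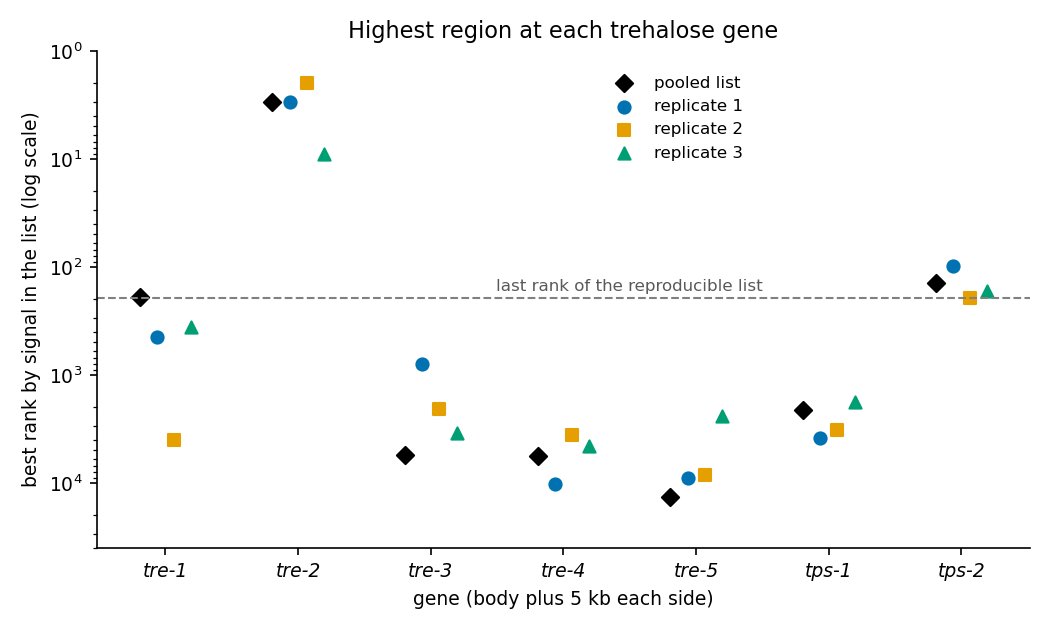
Rank of the highest region at each trehalose gene (log axis, rank 1 at the top) in the pooled list and in the 3 replicate lists, with a dashed line at rank 195, the last rank of the reproducible list. All 4 values of tre-2 lie between ranks 2 and 9, the values of tps-2 lie around the line, and tre-3, tre-4, tre-5 and tps-1 lie below it in every list.

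The trehalase gene tre-2 (WBGene00006608, T05A12.2) lies on the minus strand of chromosome IV, 6876731 to 6883442. Its main peak, rank 3 of the pooled list, spanned 6878993 to 6879239, with the summit at 6879115. The annotation gives tre-2 3 transcripts, and the summit lay in an intron of the longest, 4327 bp downstream of its start. Relative to the shorter transcripts, it lay 238 bp upstream of the start at 6878877 and 259 bp downstream of the start at 6879374. The peak was thus placed at internal starts of the gene and not at its outermost start.

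The sequence under this peak carried 1 CACGTG, which begins 8 bp after the summit on the plus strand. It is shown with the sequence of the second tre-2 peak, at rank 78, which had no CACGTG within 100 bp of its summit. The second peak held CACATG, a related E-box, on the minus strand, so that it reads CATGTG here. Each stretch is 121 bases of the plus strand centred on the summit, chrIV:6879055-6879175 and chrIV:6881264-6881384, from the RefSeq sequence of WBcel235 (ce11), with the E-box in capitals.
tre-2 peak of rank 3: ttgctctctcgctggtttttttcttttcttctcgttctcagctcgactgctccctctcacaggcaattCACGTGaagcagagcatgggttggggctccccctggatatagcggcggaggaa
tre-2 peak of rank 78: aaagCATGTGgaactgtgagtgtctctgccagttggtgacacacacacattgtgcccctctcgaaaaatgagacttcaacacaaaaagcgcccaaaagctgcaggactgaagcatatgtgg

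The main tre-2 peak had a signal of 516.5 in the pooled list, 65.0 times the median region of that list. Replicate 1 gave it a signal of 275.0, replicate 2 one of 155.0 and replicate 3 one of 90.4, which are 64.7, 41.9 and 29.6 times the medians of these lists. All 3 replicates placed the summit within 3 bp of the pooled one, and the peak ranked 3, 2 and 9. It was far above any other region at the trehalose genes in each list.

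The second tre-2 peak, chromosome IV 6881182 to 6881465, lay in an intron 1950 bp upstream of the start at 6879374 and 2118 bp downstream of the outermost start. Its pooled signal was 49.1, or 6.18 times the list median. In replicates 1, 2 and 3 it ranked 58, 1401 and 78, with 6.03, 1.85 and 5.94 times the list median. Replicate 2 was low at this peak, although its summit was only 3 bp from the pooled one. The nearest CACGTG lay 657 bp from this summit. Below the reproducible list, the next tre-2 regions ranked 1200, 1517, 1636 and 2292, and tre-2 had 12 pooled regions in all, the most of the 7 genes. In the replicates, 4, 2 and 4 regions at tre-2 ranked among the first 1000.

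**Figure D2:**
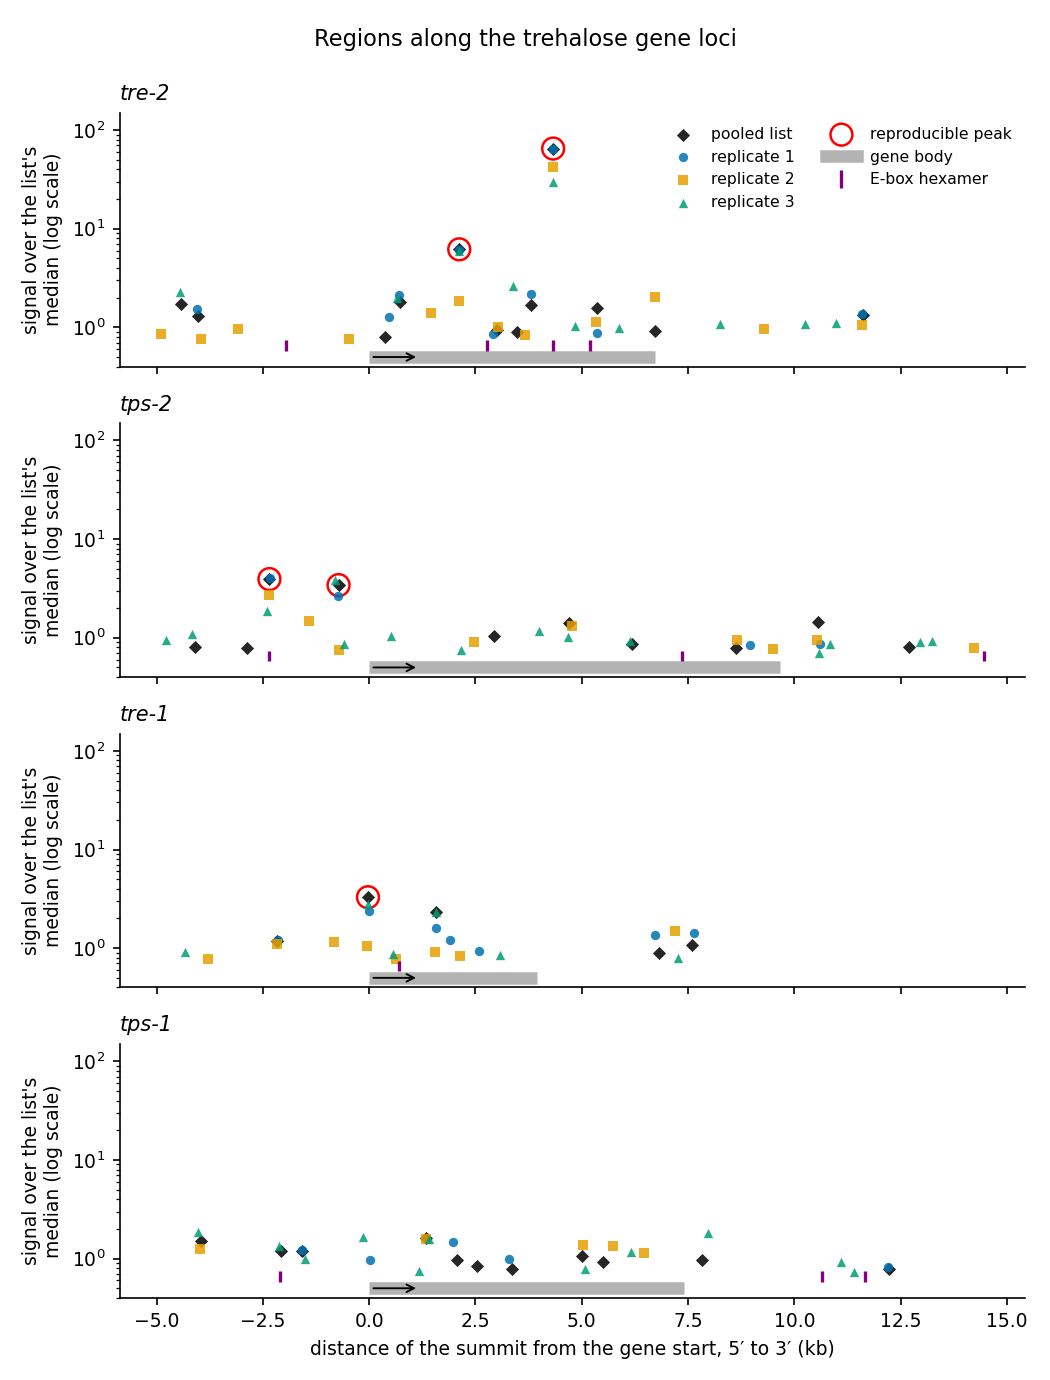
Signal of each region at tre-2, tps-2, tre-1 and tps-1 relative to the median of its list (log axis), against distance from the gene start in kb. The pooled and replicate lists are shown, with the gene body as a bar and CACGTG hexamers as ticks. The tre-2 region at 4327 bp stands at 65.0 times the pooled median, and the next highest pooled region, also at tre-2, stands at 6.18 times.

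The synthase gene tps-2 (WBGene00006603, F19H8.1) lies on the plus strand of chromosome II, 14600902 to 14610554. Both of its peaks were intergenic and upstream. The peak of rank 142, at 14598412 to 14598695, had its summit 2348 bp upstream of the start, and the next gene start, of the ATPase gene catp-4, was 4973 bp away. The peak of rank 178, at 14600039 to 14600322, had its summit 721 bp upstream.

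The tps-2 peaks resembled those of tre-2 in their motifs, with CACGTG under the higher peak and CACATG under the lower one. The hexamers begin 13 and 36 bp before the summits. Each stretch is again 121 bases of the plus strand in WBcel235 (ce11, RefSeq), chrII:14598494-14598614 and chrII:14600121-14600241, with the E-box in capitals.
tps-2 peak of rank 142: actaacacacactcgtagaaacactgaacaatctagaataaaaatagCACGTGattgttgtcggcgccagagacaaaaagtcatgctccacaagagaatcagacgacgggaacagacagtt
tps-2 peak of rank 178: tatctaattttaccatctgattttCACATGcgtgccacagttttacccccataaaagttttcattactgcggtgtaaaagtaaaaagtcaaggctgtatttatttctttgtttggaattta

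The higher tps-2 peak had a pooled signal of 31.3, or 3.93 times the list median. It ranked 98, 196 and 1761 in replicates 1, 2 and 3, with 4.07, 2.72 and 1.87 times the list median. The lower peak had a pooled signal of 27.2, or 3.42 times the median. It ranked 288, 27195 and 169, with 2.64, 0.747 and 3.84 times the median. The replicates thus split at tps-2: replicate 3 was low at the distal peak with CACGTG, and replicate 2 was below its list median at the proximal peak. Summits were up to 45 bp from the pooled one at the distal peak and up to 79 bp at the proximal one, in replicate 3 for both.

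The trehalase gene tre-1 (WBGene00006607, F57B10.7) lies on the plus strand of chromosome I, 6554729 to 6558665. Its peak, at 6554558 to 6554841 and rank 189, had its summit 29 bp upstream of the start, the closest to a gene's outermost start among the 5. The summit was also 410 bp upstream of dad-1, a gene of the oligosaccharyl transferase complex that is read in the other direction. It thus lies between the 2 genes, while the region itself reaches past the tre-1 start. Its pooled signal of 26.1 was 3.28 times the list median and close to the end of the reproducible list. The peak ranked 449, 13234 and 361 in replicates 1, 2 and 3, with 2.37, 1.05 and 2.81 times the list median. Replicate 2 was near its list median here. Neither CACGTG nor CACATG lay within 100 bp of the summit, and the gene's only CACGTG was 726 bp from it. A further tre-1 region in an intron, 1562 bp downstream of the start, ranked 453 in the pooled list with CACATG under its summit. It was the only member region outside the reproducible list among the first 1000 pooled regions, and it ranked 2852, 18412 and 688 in the replicates.

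Across the replicates, 1 of the 5 peaks, the main one of tre-2, had a region of the first 1000 within 200 bp in all 3 lists. Over all 195 peaks this share was 57.4%. By replicate, 5, 2 and 4 of the members' 5 peaks were among the first 1000 of replicates 1, 2 and 3, against 178, 148 and 166 of the 195. Replicate 2 held 16 of the 195 peaks beyond rank 10000, and 2 of those were the peak of tre-1 and the proximal peak of tps-2. With only 5 peaks, a share over the members moves far with a single peak. With the first 2000 regions of each replicate in place of the first 1000, 3 of the 5 peaks were in all 3 lists, against 65.1% of all 195 peaks.

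**Figure D3:**
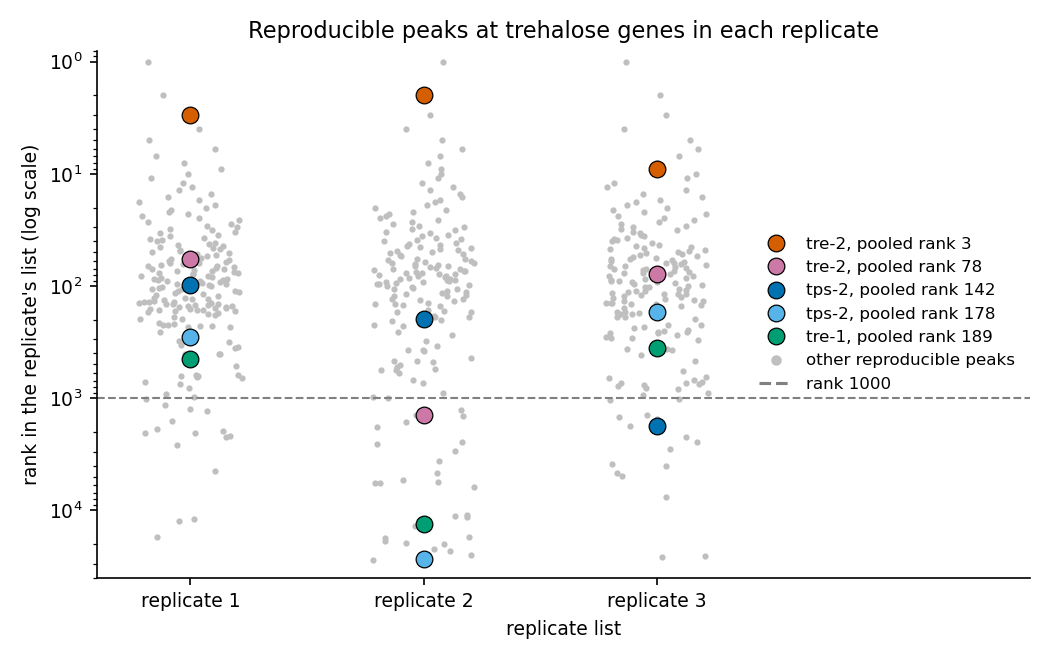
Rank of each reproducible peak in the 3 replicate lists (log axis, rank 1 at the top), with the 5 peaks at trehalose genes in colour and the other peaks in grey. The main tre-2 peak is near the top in each replicate, 3 of the 5 peaks lie below the dashed line at rank 1000 in replicate 2, and the distal tps-2 peak lies below it in replicate 3.

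The ranks over the replicates were used to name the peaks most like those of the members, by the distance between log10 ranks over the 3 lists, among 169 peaks with a region in each. The nearest to the main tre-2 peak were those with the closest gene starts F26A3.4, ranked 5, 5 and 8, ZK829.7, ranked 4, 6 and 6, and Y62E10A.13, ranked 1, 1 and 3, at distances of 0.458, 0.524 and 0.739. The nearest to the distal tps-2 peak was that of mask-1, which ranked 108, 137 and 2201, at a distance of 0.188. For tre-1 it was that of the cGMP-dependent kinase gene egl-4, which ranked 1015, 18801 and 249, at 0.418. The proximal tps-2 peak came next for tre-1, at 0.494, and both were low in replicate 2 and high in replicates 1 and 3.

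The synthase gene tps-1 (WBGene00006602, ZK54.2) lies on the minus strand of chromosome X, 17467121 to 17474534. It had 11 pooled regions and no peak, and the nearest peak lay 157362 bp from the gene body. Its best pooled region, at rank 2131 with a signal of 12.8, was in a coding exon, with no replicate 1 region within 200 bp and ranks of 3239 and 3435 in replicates 2 and 3. The best regions of the separate replicates lay in different places, 1971 and 1329 bp downstream of the start in replicates 1 and 2 and 4020 bp upstream in replicate 3. A weaker region 2083 bp upstream, at rank 8229 with a signal of 9.49, held CACGTG 18 bp from its summit. It had a region in replicate 3 only, at rank 6062.

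The 3 trehalases without a peak are spread over the genome. The gene tre-3 (WBGene00006609, W05E10.4) lies on chromosome V, 11709769 to 11715903, tre-4 (WBGene00006610, F15A2.2) on chromosome X, 13472155 to 13475926, and tre-5 (WBGene00006611, C23H3.7) on chromosome II, 52997 to 55304, near the end of that chromosome. Peaks were distant from all of them, the nearest being 83533, 112060 and 2747813 bp from the gene bodies. The best pooled region at tre-3, rank 5579, was nearer to the start of the homeobox gene ceh-32 than to that of tre-3. At tre-4 the best region, rank 5600, lay in a coding exon 177 bp downstream of the start, with a region in replicate 3 only. At tre-5, whose body overlaps the gene sptl-1, the best region, rank 13635, had no region within 200 bp in any replicate. The replicates also placed their own best regions at tre-3 apart, 4917 and 964 bp upstream of the start and 8518 bp downstream. The tre-3 region at rank 802 of replicate 1 had no pooled region within 200 bp.

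Over the 7 genes there were 53 pooled regions, of which the 5 peaks were 9.43%, against 0.650% of the whole pooled list. Of the 53, 20 lay in introns, 18 between genes, 11 in coding exons and 2 each in 5′ and 3′ UTRs. The nearest gene start was one of the member's own for 32 of the 53 regions and for all 5 peaks. Over the windows of all protein-coding genes, this held for 35.7% of pooled regions and 39.1% of peaks, with a region counted once for each window that holds it. A region lay within 200 bp in each of the 3 replicates for 7 of the 53 regions, or 13.2%, against 4.91% of all pooled regions, and 5 of these 7 were the peaks. In no replicate was there one for 10 of the 53, or 18.9%, against 12.2% of all pooled regions. The pooled list is labelled as peaks and background, so a region outside the reproducible list is not taken as a binding site here.

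E-boxes were then counted under the peaks and over the windows. CACGTG reads the same on both strands, and CACATG was searched on both strands. Of the members' 5 peaks, 2 had CACGTG at a distance of up to 100 bp from the summit, against 59.5% of all 195 peaks. CACATG lay there in 2 others, against 30.8% of all peaks. The main tre-2 peak and the distal tps-2 peak thus had CACGTG, the lower peak of each gene had CACATG, and the tre-1 peak had neither. Over the reproducible list, those with CACGTG had a median rank of 78, the 34 with CACATG and no CACGTG one of 87.5 and the 45 with neither one of 134. Among the 98 highest peaks, 1 member peak with CACGTG was left, that of tre-2.

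The windows of the 7 genes held 19 CACGTG sites, or 0.173 per kb, against 0.177 per kb over the chromosomes. They were not gathered at the genes with peaks: tre-5 had 5, tre-2 had 4, tps-1 and tps-2 had 3 each, tre-3 had 2, and tre-1 and tre-4 had 1 each. Of the 19 sites, 2 lay within 100 bp of a peak's summit, or 10.5%, against 0.790% of the 17729 sites in the genome. Within 100 bp of any pooled summit there were 3, or 15.8%, against 8.53% of all sites. The other 16 sites had no pooled summit so close, among them all 5 at tre-5, where 1 intron site of the neighbour ascc-1 had a replicate 3 region, at rank 2431.

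To show the bases beside CACGTG, 26-base stretches of the plus strand in WBcel235 (RefSeq) are given with the hexamer in capitals. The first pair are the sites under peaks, at chrIV:6879113-6879138 and chrII:14598531-14598556. The others are sites at tre-2 and tps-1 with no peak at them, shown for comparison, at chrIV:6880655-6880680, chrIV:6878246-6878271, chrX:17476623-17476648 and chrX:17462858-17462883 in the order given.
tre-2, under the peak of rank 3: acaggcaattCACGTGaagcagagca
tps-2, under the peak of rank 142: ataaaaatagCACGTGattgttgtcg
tre-2, intron: tcattattggCACGTGactgcttgaa
tre-2, coding exon: aagtaatataCACGTGtaccatttgg
tps-1, upstream: gcgcttttttCACGTGgatctccgcc
tps-1, coding exon of slc-17.1: tgctccaaatCACGTGcattgccgga

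Read with 1 base on each side and on either strand, the site under the tre-2 peak was TCACGTGA and that under the tps-2 peak was GCACGTGA. Of the 1267 TCACGTGA sites in the genome, 38 lay within 100 bp of a peak's summit, or 3.00%, and of the 1174 GCACGTGA sites 30 did, or 2.56%. These shares were the highest of the 10 such octamers, and the lowest was 0.208%, for ACACGTGG. The members' windows held 4 sites of these 2 octamers, and 2 of them were under peaks. The remaining pair were the intron site of tre-2, 229 bp from the nearest pooled summit, at rank 18316, and the slc-17.1 site near tps-1, 559 bp from the nearest, at rank 27233. None of the 15 sites of the other octamers lay at a peak. Over the genome these other octamers had shares of 0.208% to 2.16%, so none in 15 is near that background. The tps-1 site beside the region of rank 8229 was CCACGTGA, of which 0.528% in the genome were near a peak. The same octamer can thus be found with and without a peak at these genes.

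**Figure D4:**
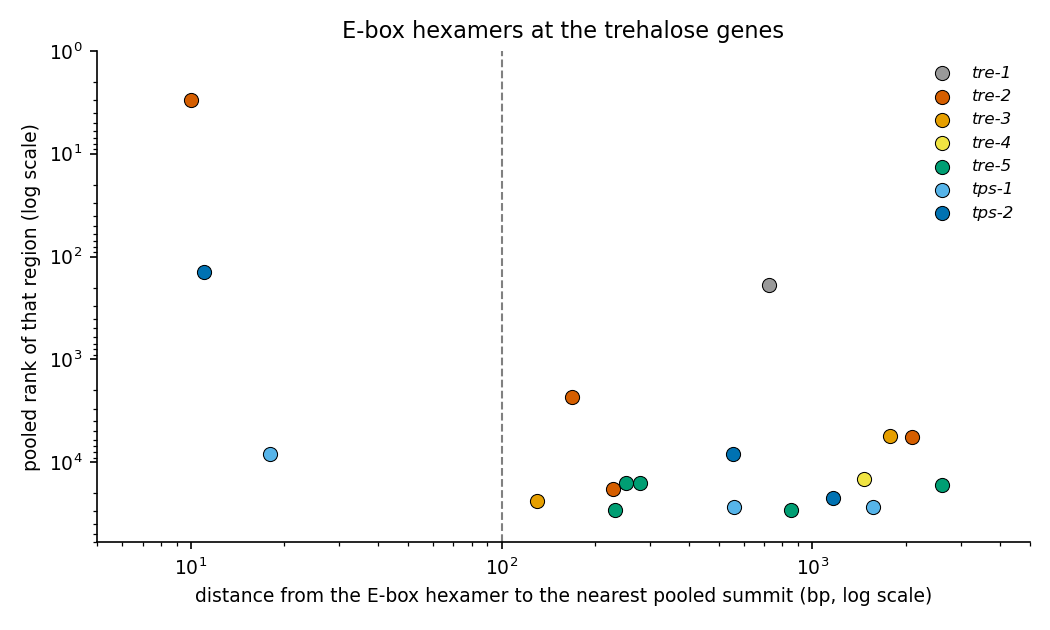
Distance from each of the 19 CACGTG sites at the trehalose genes to the nearest pooled summit (bp, log axis) against the rank of that region (log axis, rank 1 at the top), coloured by gene, with a dashed line at 100 bp. The tre-2 site at 10 bp from rank 3 and the tps-2 site at 11 bp from rank 142 stand at the top left, and 16 sites lie beyond the line.

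Genes around the trehalose pathway were described in the same way, from a list of 16 that covers the trehalose phosphate phosphatase gob-1, glycogen synthesis and breakdown, glucosidases, hexokinases and hexose phosphate enzymes. Peaks lay at 3 of the 7 trehalose genes, at 0 of the 16 related genes and at 1.88% of all genes, and a count of 0 in 16 is near that background. The best region at gob-1, which takes the phosphate off trehalose phosphate, ranked 4832 and lay in its intron, at 5938 and 20235 in replicates 1 and 3, with no region in replicate 2. The glycogen phosphorylase gene pygl-1 had a best rank of 1444 and the glycogen synthase gene gsy-1 one of 17460. The median best rank was 5061.5 over the list.

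A pooled region among the first 1000 was found at 3 of the 16 related genes, against 10.1% of all genes, and these 3 were picked out after their values were seen. The region at the hexokinase gene hxk-3, at rank 810, had its summit 60 bp downstream of the start and CACGTG within 100 bp of the summit. It ranked 5126 and 614 in replicates 1 and 3, with none in replicate 2. That at pgm-1, a phosphoglucomutase gene, ranked 896 and had regions at 9174 and 3253 in replicates 1 and 2. That at the alpha-glucosidase gene aagr-3, at rank 230, was nearer to the start of drap-1 and ranked 6920, 162 and 886. Each of these 3 regions was thus beyond rank 1000 or missing in at least 1 replicate. The members' peaks other than the main one of tre-2 were also beyond rank 1000 in at least 1 replicate.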

How the data were processed

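Regions of tagged MML-1 ChIP-seq were deposited as lists for 3 replicates of L3 larvae, for all replicates pooled and for the reproducible set. The signal of each region was deposited by the authors, from ChIP set against a control library, on a scale that is not stated. Each list was ranked by it, and ratios were taken only to the median of the same list. The control library was not analysed here, and read totals are unknown. For the aligner, the peak caller and the threshold, names and versions were not given in the sources used here. Only the ce11 lists were used.

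Summits were placed on Ensembl release 115 genes and the RefSeq sequence of WBcel235, with 1-based coordinates. Windows were the gene body plus 5 kb on each side. Summits within 200 bp were matched between lists, and E-boxes were searched within 100 bp of a summit. All 19973 protein-coding genes, 195 peaks or 17729 CACGTG sites gave the background. No test was run, because there is 1 condition and regions are not replicates. The steps were checked on simulated lists.

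The members, the related genes and the counts were chosen with earlier results of these data known. Named are the 7 genes, their peaks, the best region of a gene without one, the genes nearest to these, and gob-1. Genes with the most similar ranks were named by a distance over replicates. Other named genes were chosen after their values were seen. Alternatives varied the window, the peak set, the matching, the motif window and the replicates. The tools were matplotlib 3.10.9, pandas 2.3.3 and numpy 2.4.6 under Python 3.11.15.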

Additional observations from a re-analysis of the deposited data

How the results depend on the processing

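The 98 peaks of highest signal left 1 member with a peak, 2 peaks at members, 1 peak with CACGTG and 1 CACGTG site at a peak, in place of 3, 5, 2 and 2. The promoter window left 3 peaks, and a window of 2 kb left 1 CACGTG site at a peak. With the first 2000 regions of each replicate, 3 peaks were high in all replicates in place of 1. Leaving out each replicate in turn gave 1 to 3 members with a peak, 1 to 4 peaks at members, 1 to 2 with CACGTG, 1 to 4 high in the replicates kept and 1 to 2 sites at a peak. To leave out replicate 1, 2 or 3, the 144, 215 or 179 top 1000 regions shared by the others took the place of the peaks, which changes the set by construction. The lowest counts came without replicate 1. The best rank moved by less than 1 SD of the replicates' best ranks in 27 of 35 alternatives, but that spread is wide. At tre-1, with a pooled rank of 189 and an SD of 2072, both 2177 without replicate 1 and 2221 without replicate 3 counted as within it. The values with a replicate left out are means of 2 replicate ranks set against a pooled rank. These moves thus mix unlike measures and say little about how stable a rank is. With a replicate left out, the mean best rank was 1445.5 to 2759 at tre-3, 4120.5 to 7450 at tre-4, 5415 to 8726.5 at tre-5 and 2519 to 3563.5 at tps-1. With a window of 10 kb the best pooled rank was 2388 at tre-5 and 1209 at tps-1. No paired analysis was possible because the labels give only 1 group. Low ranks in a single replicate could not be compared with read depth, which is unknown.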
